A study of Bos taurus with 24 samples.

Results

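Glucose uptake, glycolysis and the response to low oxygen were followed through 10 genes in bovine skin fibroblasts that were given lipopolysaccharide (LPS), a component of the outer membrane of Gram-negative bacteria. The genes are HIF1A, SLC2A1, SLC2A3, HK1, HK2, PFKFB3, PFKP, LDHA, PDK4 and VEGFA. They were chosen by symbol, and each symbol was found on exactly 1 row of the count tables, out of 27371 distinct symbols and 59846 rows. RNA-Seq had been run on 24 samples: cultures from 4 Holstein (dairy) and 4 Angus (beef) heifers, each at 0, 2 and 8 h of LPS at 100 ng/ml. The fibroblasts had been grown from shoulder skin of heifers about 19 months old and frozen at low passage, and wells of the same culture and hour were pooled in pairs before RNA extraction. Each breed is therefore represented by 4 animals at a single age, and each animal by 1 culture. The 0 h samples received no LPS and no sample was kept without LPS for 2 or 8 h, so an effect of LPS and an effect of time in the assay cannot be told apart.

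Cells take up glucose through facilitative transporters of the SLC2A family, and hexokinases trap it by phosphorylation. Phosphofructokinase then commits the sugar to glycolysis, and its activity is raised by fructose 2,6-bisphosphate, the product of the PFKFB enzymes. Pyruvate, the end product, is either reduced to lactate by lactate dehydrogenase or enters mitochondria through pyruvate dehydrogenase, which the PDK kinases switch off. HIF1A is the oxygen-regulated subunit of a transcription factor that raises many of these genes and the angiogenic factor VEGFA when oxygen is low. In immune cells and fibroblasts, inflammatory signals can also raise HIF1A and glucose uptake with oxygen present.

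Total counts per sample ran from 51014538 to 104406293, so that 1 CPM, a unit scaled to the library total, stood for 51.0 to 104.4 counts, and counting error was small for every gene except PDK4. All 10 fibroblast markers examined reached 1 CPM, whereas 6 of 7 leukocyte, 6 of 9 keratinocyte, 4 of 5 melanocyte and 3 of 6 endothelial markers stayed under 1 CPM in all samples. All 4 muscle and pericyte markers reached 1 CPM in some sample, with CSPG4 at 110 to 408 and MYH11 at 15.8 to 44.1 CPM. Their summed level ranged from 183 to 314 CPM in Holstein at 0 h, 317 to 445 at 2 h and 180 to 198 at 8 h. In Angus it was 169 to 305, 254 to 400 and 129 to 257 CPM, and their part in the results below was not tested. The summed keratinocyte markers reached 15.0 CPM in the Holstein group and 0.98 CPM in the Angus group, led by KRT5 and KRT14, and their part in the results below was not tested. In 4 samples (Angus 4, Holstein 2 and Holstein 4 at 0 h and Angus 3 at 2 h) each count at COL1A1 stood for 66.2 to 67.1 bases of coverage, and in the other 20 for 111.8 to 119 bases. For each of the 10 genes the range of bases per count in these 4 samples overlapped that of the rest, and where a call of 1 of them changes without the 4 samples, the value is given with the gene. In bulk RNA a lower value can mean fewer cells expressing a gene or less RNA per cell, and these cannot be told apart.

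Among the 10 genes, LPS was accompanied by higher expression of most of those for glucose uptake and its first steps, with SLC2A1 raised most, and by a fall of PDK4. With both breeds together, SLC2A1, SLC2A3, HK2 and PFKFB3 rose and PDK4 fell by 2 h, and 5 of the 10 genes passed a false discovery rate (FDR) of 0.05 (edgeR likelihood-ratio test), where 22.0% of all 20157 rows tested did so (10.8% higher and 11.2% lower). At 8 h, HIF1A, SLC2A1, SLC2A3, HK1, HK2 and VEGFA were higher and PDK4 was lower than at 0 h. That was 7 of 10 genes against 12.8% of all rows, of which 6.55% were higher and 6.25% lower. PDK4 came past the filter on low counts mainly through its 0 h samples, so a fall is favoured by the filter itself. Without the filter its 2 h call was kept and its 8 h call was lost (FDR 0.0556). Of the 9 other genes, 4 passed at 2 h and 6 at 8 h, and all of these calls were rises. A change of at least 2-fold with a mean above 1 CPM was reached among these 9 by SLC2A1 at 2 h (2.82% of all rows) and by HIF1A and SLC2A1 at 8 h (1.42%), and by PDK4 at both hours. The median log2 fold change of the 9 genes was 0.33 at 2 h and 0.60 at 8 h, where the medians of all rows were -0.004 and -0.007. The genes were chosen with earlier results of these data known, so these shares and medians are a description and not a test of the set. PFKP and LDHA passed in neither comparison. A change in the same direction in all 8 animals, quoted with single genes below, was found in 36.1% of all rows at 2 h, in 27.8% at 8 h and in 34.8% from 2 to 8 h. Within a breed, 0 h and LPS samples did not overlap in 22.5% (2 h) and 20.0% (8 h) of rows in Holstein and in 20.2% and 11.1% in Angus.

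Because the same 8 animals were sampled at each hour, the comparisons were also fitted with the animal as a block. With the block, HIF1A and HK1 passed at 2 h in addition, giving 7 of 10 genes, but 47.5% of all rows passed as well. At 8 h the blocked fit called 7 of 10 genes and 40.7% of rows. PDK4, whose fall the filter favours, is counted among the 7 at both hours. Where the block changed a call of 1 of the 10 genes over the hours, the value is given with that gene.

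**Figure D1:**
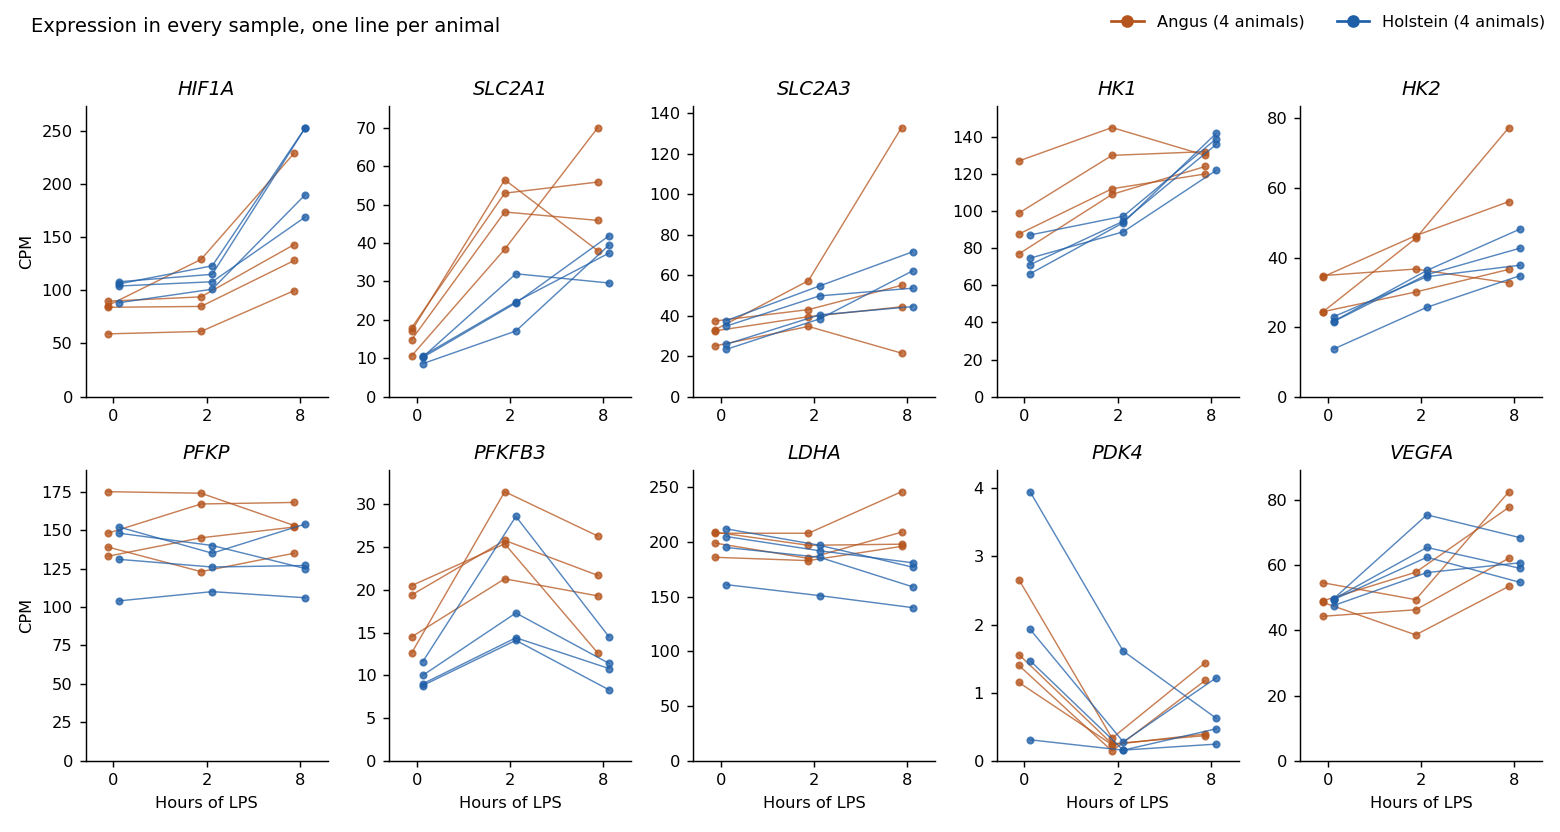
Expression of the 10 genes in CPM (vertical axes, each starting at 0 with its own scale) at 0, 2 and 8 h of LPS, 1 line per animal. SLC2A1 rises in every animal by 2 h, HIF1A climbs mainly between 2 and 8 h, PFKFB3 peaks at 2 h, PDK4 drops at 2 h, and PFKP and LDHA stay near their starting levels.

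HIF1A, on the plus strand of chromosome 10 (74095729 to 74140535, UMD v3.1), rose late. In Angus 1 to 4 its level was 84.0, 89.7, 85.6 and 59.0 CPM at 0 h, 84.8, 93.8, 129 and 61.3 CPM at 2 h, and 128, 143, 229 and 99.7 CPM at 8 h. In Holstein 1 to 4 it was 88.3, 106, 104 and 108 CPM at 0 h, 101, 123, 108 and 115 CPM at 2 h, and 190, 253, 169 and 253 CPM at 8 h. Every 8 h sample lay above every 0 h sample of its own breed, whereas the 2 h and 0 h samples overlapped in both. Within animals the 8 h level was 1.52- to 2.68-fold the 0 h level, and the log2 fold change was 1.01 (SE 0.19, edgeR FDR 5.61e-06).

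Most of the HIF1A rise came after 2 h. From 0 to 2 h the change per animal was 1.01- to 1.51-fold, with a log2 fold change of 0.17 (SE 0.15, FDR 0.52), and with the animal as a block it was 0.16 (FDR 0.0383). From 2 to 8 h the log2 fold change was 0.85 (SE 0.20, FDR 0.000276), higher in 8 of 8 animals. In Holstein alone the 2 h change was 0.14 (SE 0.11, FDR 0.48), with a blocked FDR of 0.0494, and the 8 h change was 1.10 (SE 0.15, FDR 1.04e-10) and in Angus alone 0.91 (SE 0.26, FDR 0.0199). The Angus call was lost with the quasi-likelihood F test (FDR 0.118) and without Angus 1 (0.114), Angus 2 (0.137) or Angus 3 (0.0565), and without the 4 samples counted differently (0.0846).

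HIF1A is the only one of the 10 genes whose interval shares bases with another annotated gene. LOC100848505, on the opposite strand of chromosome 10 (74116088 to 74143269), covers 24448 bases of it and held 473994 counts over all samples against 241183 for HIF1A. The library kit does not mark strand, so reads in the shared stretch cannot be assigned to either gene. The LOC100848505 row moved with HIF1A, with log2 fold changes of 0.17 (FDR 0.494) at 2 h and 1.00 (SE 0.18, FDR 2.68e-06) at 8 h.

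Both glucose transporters rose at 2 h and were higher than at 0 h at 8 h, with the larger estimates for SLC2A1. SLC2A1, the widely expressed basal glucose transporter, lies on the plus strand of chromosome 3 (103902894 to 103931096). Its level in Angus 1 to 4 was 17.9, 14.8, 10.6 and 17.1 CPM at 0 h, 53.0, 48.1, 38.4 and 56.5 CPM at 2 h, and 55.9, 45.9, 70.1 and 38.0 CPM at 8 h. In Holstein 1 to 4 it was 10.6, 10.2, 10.3 and 8.59 CPM at 0 h, 24.7, 24.4, 32.0 and 17.1 CPM at 2 h, and 37.4, 41.9, 29.6 and 39.5 CPM at 8 h. No LPS sample of either breed overlapped the 0 h samples of that breed, and 8 of 8 animals were higher at both hours.

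The SLC2A1 increase at 2 h was 1.99- to 3.62-fold within animals, with a log2 fold change of 1.55 (SE 0.24, FDR 6.05e-09), and this stayed between 1.5 and 1.61 in 18 fits. At 8 h it was 2.22- to 6.62-fold within animals and 1.84 on the log2 scale (SE 0.19, FDR 1.76e-18). SLC2A1 was the only 1 of the 10 that passed in each breed at each hour. At 2 h the log2 fold change was 1.7 (SE 0.19, FDR 3.34e-15) in Angus and 1.3 (SE 0.18, FDR 6.89e-11) in Holstein, and at 8 h it was 1.80 (SE 0.23, FDR 3.84e-11) and 1.91 (SE 0.13, FDR 3.09e-42). From 2 to 8 h the 8 animals went different ways, 5 higher and 3 lower, with a log2 fold change of 0.29 (SE 0.24, FDR 0.432).

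SLC2A3, a high-affinity glucose transporter on the minus strand of chromosome 5 (101896621 to 101909500), was also higher at both hours. In Holstein 1 to 4 it measured 25.9, 37.6, 34.9 and 23.4 CPM at 0 h, 40.4, 54.7, 49.8 and 38.4 CPM at 2 h, and 44.5, 71.6, 53.6 and 62.2 CPM at 8 h. In Angus 1 to 4 it measured 37.4, 32.5, 33.1 and 25.1 CPM at 0 h, 43.0, 39.5, 57.3 and 34.7 CPM at 2 h, and 55.0, 44.4, 133 and 21.5 CPM at 8 h. Angus 3 stood above and Angus 4 below all other 8 h samples, and Angus 4 was the only animal lower at 8 h than at 0 h (0.853-fold). The log2 fold change with both breeds was 0.51 (SE 0.13, FDR 0.00133) at 2 h, with 8 of 8 animals higher, and 0.95 (SE 0.26, FDR 0.00432) at 8 h, with 7 of 8.

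At 8 h the SLC2A3 call was lost without the 4 samples counted differently (log2 fold change 0.89, FDR 0.0587), and without Angus 3 the change was 0.70 (FDR 0.0188). The 2 h call was lost when all 24 samples shared 1 estimate of spread (FDR 0.0879). Within Holstein SLC2A3 rose at 2 h (0.58, SE 0.18, FDR 0.0123) and at 8 h (0.93, SE 0.20, FDR 5.87e-05), the 2 h call being lost without Holstein 1 (FDR 0.073) or Holstein 3 (0.0514) and both calls with all 24 samples in 1 fit (FDR 0.279 and 0.0515). Within Angus the estimates were 0.44 (SE 0.19, FDR 0.111) and 0.98 (SE 0.46, FDR 0.302). With the animal as a block the Angus 2 h change passed (0.43, FDR 0.000288).

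Both hexokinases were higher at 8 h than at 0 h, and HK2 had risen by 2 h. HK1, the housekeeping hexokinase, lies on the plus strand of chromosome 28 (25854741 to 25925054). It measured 98.9, 87.6, 76.9 and 127 CPM in Angus 1 to 4 at 0 h, 130, 112, 109 and 145 CPM at 2 h, and 132, 120, 124 and 130 CPM at 8 h. In Holstein 1 to 4 it measured 87.1, 66.2, 74.6 and 71.1 CPM at 0 h, 97.2, 93.7, 88.8 and 94.5 CPM at 2 h, and 139, 142, 122 and 136 CPM at 8 h. Holstein samples of the 3 hours did not overlap each other, whereas in Angus the 0 h and later samples overlapped.

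HK1 was higher in 8 of 8 animals at both hours. The log2 fold change was 0.33 (SE 0.14, FDR 0.0747) at 2 h, which passed with the animal as a block (0.34, FDR 1.3e-09) and without Angus 4 (0.36, FDR 0.00801), and 0.60 (SE 0.12, FDR 1.23e-05) at 8 h. In Holstein HK1 rose by 0.32 (SE 0.10, FDR 0.0139) at 2 h and by 0.85 (SE 0.11, FDR 1.91e-13) at 8 h. The Holstein 2 h call was lost without Holstein 2 (FDR 0.148), Holstein 3 (0.0688) or Holstein 4 (0.136), without the samples counted differently (0.335) and with all 24 samples in 1 fit (0.0612). In Angus the estimates were 0.34 (SE 0.18, FDR 0.234) and 0.37 (SE 0.16, FDR 0.226), and both passed with the block (FDR 2.03e-05 and 0.00283) and without the samples counted differently (0.55, FDR 0.00707, and 0.52, FDR 0.00297). Without Angus 4 the Angus 8 h change of HK1 was 0.51 (FDR 0.0158). From 2 to 8 h HK1 was higher by 0.27 (SE 0.10, FDR 0.0384), a call lost without any 1 of Angus 2, Angus 3 or the 4 Holstein animals (FDR 0.0588 to 0.153), without the CPM filter (0.119) and without the samples counted differently (0.0524), and kept with the block.

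HK2, the inducible hexokinase of muscle and of growing cells, lies on the minus strand of chromosome 11 (9722025 to 9791267). Angus 1 to 4 had 34.4, 24.4, 24.3 and 34.8 CPM at 0 h, 46.3, 30.1, 45.5 and 36.7 CPM at 2 h, and 56.1, 36.6, 77.4 and 32.7 CPM at 8 h. Holstein 1 to 4 had 21.6, 13.7, 23.0 and 21.7 CPM at 0 h, 35.1, 25.7, 34.5 and 36.3 CPM at 2 h, and 42.7, 34.8, 37.8 and 48.2 CPM at 8 h. Holstein LPS samples all lay above the Holstein 0 h samples, and in Angus the hours overlapped, with Angus 3 highest and Angus 4 lowest at 8 h.

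With both breeds HK2 rose by 0.55 on the log2 scale at 2 h (SE 0.17, FDR 0.00972, 8 of 8 animals higher) and by 0.88 at 8 h (SE 0.20, FDR 0.000341, 7 of 8 animals higher). In Holstein the changes were 0.71 (SE 0.18, FDR 0.00135) and 1.03 (SE 0.18, FDR 4.63e-07). In Angus they were 0.43 (SE 0.20, FDR 0.148) and 0.78 (SE 0.28, FDR 0.107), which passed with the animal as a block (FDR 0.00469 and 0.0145). Without Angus 4 the Angus 8 h change was 1.03 and passed (FDR 0.0242). From 2 to 8 h the HK2 change with both breeds was 0.34 (SE 0.18, FDR 0.163), and with the animal as a block it passed (0.31, FDR 0.00139).

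PFKFB3 and PFKP, which act at the committing step, behaved differently. PFKFB3 makes fructose 2,6-bisphosphate and lies on the minus strand of chromosome 13 (17380740 to 17406594). In Angus 1 to 4 it measured 19.4, 14.5, 12.6 and 20.5 CPM at 0 h, 25.8, 21.3, 31.5 and 25.4 CPM at 2 h, and 21.7, 19.3, 26.3 and 12.6 CPM at 8 h. In Holstein 1 to 4 it measured 10.0, 11.6, 8.81 and 9.01 CPM at 0 h, 17.3, 28.6, 14.1 and 14.4 CPM at 2 h, and 11.4, 14.5, 8.3 and 10.8 CPM at 8 h. The 2 h samples lay above the 0 h samples of their breed without overlap, and the 8 h samples overlapped those of 0 h.

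The rise of PFKFB3 at 2 h was 1.24- to 2.5-fold within animals, with 8 of 8 higher and a log2 fold change of 0.74 (SE 0.22, FDR 0.00514). It passed in Holstein (0.91, SE 0.23, FDR 0.00127) and in Angus (0.63, SE 0.20, FDR 0.0132), the Angus call being lost without Angus 1 (FDR 0.0665), Angus 2 (0.0643) or Angus 3 (0.12). At 8 h the change from 0 h was 0.23 (SE 0.25, FDR 0.634). From 2 to 8 h PFKFB3 was lower in 8 of 8 animals, at 0.498- to 0.906-fold, and the log2 fold change of -0.51 (SE 0.24, FDR 0.109) passed with the animal as a block (-0.55, FDR 1.77e-06). In the comparison of 2 and 8 h, 2 of the 9 genes tested passed without the block (23.8% of all rows) and 4 with it (48.4%).

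PFKP, the platelet-type subunit of phosphofructokinase on the minus strand of chromosome 13 (45500599 to 45553520), ranged from 104 to 175 CPM over the 24 samples. Its group means lay between 128 and 152 CPM, with SDs of 13.0 to 23.2 (n = 4 each). The log2 fold change was -0.02 at 2 h (95% interval -0.24 to 0.20, FDR 0.962) and -0.02 at 8 h (-0.23 to 0.20, FDR 0.956).

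LDHA, which turns pyruvate into lactate, lies on the minus strand of chromosome 29 (26543857 to 26555739). Its Angus means were 200 ± 10.7, 193 ± 11.7 and 212 ± 23.3 CPM at 0, 2 and 8 h and its Holstein means 193 ± 22.4, 182 ± 21.0 and 164 ± 18.6 CPM (SD, n = 4 each). With both breeds the log2 fold change was -0.07 at 2 h (SE 0.08, FDR 0.631) and -0.07 at 8 h (SE 0.10, FDR 0.757). At 8 h Holstein 1 to 4 had 159, 140, 177 and 181 CPM against 195, 161, 212 and 205 CPM at 0 h, and all 4 were lower, at 0.817- to 0.884-fold. The Holstein change was -0.23 (SE 0.13, FDR 0.24), and it passed with the animal as a block (-0.23, FDR 0.000249).

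PDK4, which switches off pyruvate dehydrogenase and is raised by fasting in many tissues, was the single member called lower than at 0 h without the block. It lies on the minus strand of chromosome 4 (12754202 to 12767677) and is scarce here, with 11 to 270 counts per sample. Angus 1 to 4 had 1.56, 1.4, 2.66 and 1.15 CPM at 0 h, 0.248, 0.144, 0.332 and 0.236 CPM at 2 h, and 0.37, 1.18, 1.44 and 0.394 CPM at 8 h. Holstein 1 to 4 had 1.93, 3.95, 1.47 and 0.308 CPM at 0 h, 0.278, 1.61, 0.157 and 0.156 CPM at 2 h, and 1.22, 0.622, 0.245 and 0.47 CPM at 8 h. Angus 0 h and 2 h samples did not overlap, whereas Holstein 4 was already low at 0 h and Holstein 2 was still high at 2 h.

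PDK4 was lower at 2 h in 8 of 8 animals, at 0.103- to 0.506-fold, with a log2 fold change of -2.19 (SE 0.52, FDR 0.00047). At 8 h it was lower in 7 of 8, with -1.28 (SE 0.43, FDR 0.0299). PDK4 entered these tests through its 0 h samples, the only group in which most samples reached 1 CPM, and a gene that enters in this way has to be higher at 0 h. Without Holstein 2 it was not tested at 2 h, because fewer than 50% of samples reached 1 CPM, and from 2 to 8 h it was not tested at all.

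The 8 h call of PDK4 was lost with the quasi-likelihood F test (FDR 0.0604), without the CPM filter (0.0556), and without Angus 1 (0.0786), Angus 4 (0.054), Holstein 2 (0.164) or Holstein 3 (0.0776). In Angus alone PDK4 was lower by 2.81 on the log2 scale at 2 h (SE 0.37, FDR 1.26e-11). Only the Angus 0 h samples (1.15 to 2.66 CPM) reached 1 CPM in that fit, against 0.144 to 0.332 CPM at 2 h. PDK4 was thus tested there only because it was high at 0 h, and the direction was fixed in advance. Without the CPM filter the Angus 2 h call was kept. The Angus 8 h change was -0.99 (FDR 0.349), passing with the block (-1.14, FDR 0.000762). In Holstein alone the changes were -1.81 (SE 0.85, FDR 0.16) and -1.58 (SE 0.66, FDR 0.104), and with the block -2.09 (FDR 1.01e-07) and -1.36 (FDR 0.0412). Without Holstein 4 the Holstein 8 h change of PDK4 passed (-1.81, FDR 0.0354).

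VEGFA, the growth factor that drives new vessels, lies on the plus strand of chromosome 23 (17256017 to 17269819). It measured 54.6, 44.3, 49.0 and 48.6 CPM in Angus 1 to 4 at 0 h, 49.4, 46.3, 57.8 and 38.6 CPM at 2 h, and 82.5, 62.1, 77.7 and 53.5 CPM at 8 h. In Holstein 1 to 4 it measured 47.6, 49.7, 49.4 and 49.6 CPM at 0 h, 57.7, 75.4, 62.4 and 65.4 CPM at 2 h, and 60.7, 68.4, 54.7 and 59.0 CPM at 8 h. All Holstein LPS samples lay above the Holstein 0 h samples, and in Angus the 2 h samples lay on both sides of the 0 h range.

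At 8 h VEGFA was higher in 8 of 8 animals, at 1.1- to 1.58-fold, with a log2 fold change of 0.40 (SE 0.10, FDR 0.000851). At 2 h it rose in Holstein (0.40, SE 0.10, FDR 0.000851), while the Angus estimate was -0.03 (SE 0.15, FDR 0.948) and the estimate for both breeds 0.20 (SE 0.12, FDR 0.247). At 8 h the change was 0.31 in Holstein (SE 0.09, FDR 0.00919) and 0.49 in Angus (SE 0.16, FDR 0.0618). The Angus change passed with the block (FDR 6.29e-05), with DESeq2 (FDR 0.0268), with all 24 samples in 1 fit (FDR 0.00759) and without Angus 4 (0.59, FDR 0.0164). The Holstein 8 h call was lost without Holstein 1 (FDR 0.0947), Holstein 2 (0.126) or Holstein 4 (0.0743), without the samples counted differently (0.108) and with all 24 samples in 1 fit (0.118).

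**Figure D2:**
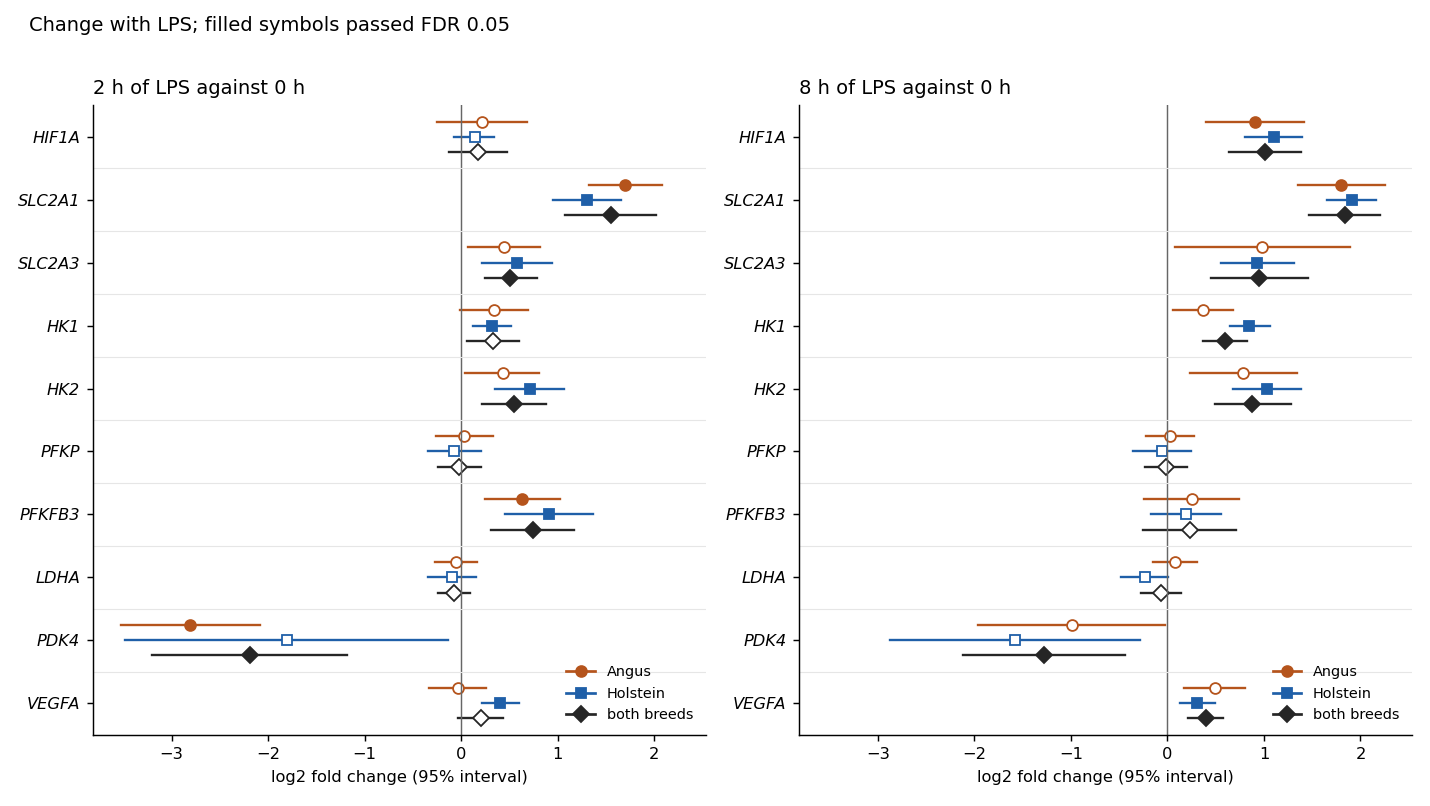
log2 fold change (horizontal axis, symbols) with its 95% interval (bars) for 2 h and 8 h of LPS against 0 h, in Angus (n = 4), Holstein (n = 4) and both breeds (n = 8 animals). Filled symbols passed FDR 0.05; SLC2A1 is filled in all 6 positions, and the interval of PDK4 in Holstein is the widest shown.

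Counted by breed, 6 of the 10 genes passed in Holstein at 2 h (17.2% of all rows) and 6 at 8 h (14.7%), while 3 passed in Angus at 2 h, PDK4 among them (13.8%), and 2 at 8 h (3.9%). Without PDK4 the Angus count at 2 h was 2 of 9 genes. With the animal as a block the Angus counts were 6 at 2 h (35.8% of rows) and 6 at 8 h (20.7%), and the Holstein counts 8 (35.8%) and 8 (35.2%). Each of these blocked counts includes PDK4, whose fall the filter favours. Fewer calls in Angus do not show a smaller change there, which is tested by the interaction of breed and LPS below.

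Before LPS, SLC2A1, HK2 and PFKFB3 were lower in Holstein than in Angus fibroblasts, and no member was called higher. These 3 of 10 genes compare with 13.8% of all rows called in either direction and 6.98% called lower. PFKFB3 averaged 9.86 ± 1.29 CPM in Holstein and 16.8 ± 3.8 CPM in Angus, a log2 difference of -0.76 (SE 0.19, FDR 0.00154), with no overlap between breeds. SLC2A1 averaged 9.9 ± 0.894 against 15.1 ± 3.27 CPM (-0.61, SE 0.18, FDR 0.0114), and Holstein 1 and Angus 3 met at 10.6 CPM. HK2 averaged 20.0 ± 4.27 against 29.5 ± 5.91 CPM (-0.56, SE 0.20, FDR 0.0444), again with no overlap. Groups that did not overlap with Holstein lower were found in 7.98% of rows at 0 h.

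In the fits that left out 1 animal, PFKFB3 kept its 0 h call each time (edgeR FDR 1.18e-05 to 0.0183). SLC2A1 and HK2 lost theirs in some of these fits. Of the 8 samples, 3 were counted differently, and without them (3 Angus, 2 Holstein) the estimates were -0.47 for SLC2A1 (FDR 0.512), -0.31 for HK2 (FDR 0.638) and -0.72 for PFKFB3 (FDR 0.109). SLC2A1 also lost its call without Angus 1 (FDR 0.0776), Angus 4 (0.0647) or Holstein 4 (0.0711), and HK2 with the quasi-likelihood F test (0.0889), without the CPM filter (0.0751), with all 24 samples in 1 fit (0.0738) and without Angus 1, Angus 4, Holstein 1, Holstein 2 or Holstein 4 (0.0864 to 0.179). HK1, at -0.39 (FDR 0.111), was called lower in Holstein without Angus 3 (-0.48, FDR 0.0149). All 14 proliferation genes examined, among them MKI67 and TOP2A, were lower in Holstein at 0, 2 and 8 h. Their summed level was 830 ± 171 CPM in Holstein and 1940 ± 740 CPM in Angus at 0 h, with medians of the log2 difference of -1.02, -1.05 and -0.88 at the 3 hours. Without the samples counted differently 1 of the 14 passed at 0 h and 14 at 2 h. The part of proliferation in the breed differences given here was not tested.

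At 2 h of LPS, SLC2A1 and HK1 were lower and VEGFA was higher in Holstein, 3 of 9 genes tested where 20.1% of rows were called, and 9.71% were called lower. SLC2A1 averaged 24.6 ± 6.06 CPM in Holstein and 49.0 ± 7.85 CPM in Angus, a log2 difference of -1.0 (SE 0.20, FDR 3.67e-05), with the highest Holstein sample at 32.0 and the lowest Angus sample at 38.4 CPM. HK1 averaged 93.6 ± 3.54 against 124 ± 16.7 CPM (-0.41, SE 0.12, FDR 0.00901), also without overlap, a pattern with Holstein lower in 11.1% of rows. VEGFA averaged 65.2 ± 7.49 against 48.0 ± 7.95 CPM (0.44, SE 0.15, FDR 0.0231), with Holstein 1 at 57.7 and Angus 3 at 57.8 CPM. SLC2A1 and HK1 kept their calls at FDR 0.05 in every fit run for this comparison, and VEGFA lost it without the CPM filter (FDR 0.0567) and without any 1 of Angus 1, Angus 2, Angus 4, Holstein 2, Holstein 3 or Holstein 4 (0.0502 to 0.112). The summed proliferation genes stood at 793 ± 183 CPM in Holstein and 1760 ± 643 CPM in Angus, and their part was not tested.

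Angus 3 weighed on several 2 h breed values. Without it, which is also the fit without the samples counted differently, HIF1A was called higher in Holstein (0.48, FDR 0.0143) and PFKP lower (-0.34, FDR 0.0291), where the reported estimates were 0.27 and -0.26. Without Holstein 2, PFKFB3 was called lower in Holstein (-0.77, FDR 0.000473), where the reported estimate was -0.49 with Holstein 2 highest of its group at 28.6 CPM.

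At 8 h, PFKFB3 and LDHA were lower in Holstein, 2 of 9 genes tested where 16.5% of rows were called, and 7.78% were called lower. PFKFB3 averaged 11.2 ± 2.54 CPM in Holstein and 20.0 ± 5.69 CPM in Angus (-0.83, SE 0.25, FDR 0.00996). LDHA averaged 164 ± 18.6 against 212 ± 23.3 CPM (-0.37, SE 0.13, FDR 0.032), with no overlap, which held with Holstein lower in 9.13% of rows. LDHA lost its call with the quasi-likelihood F test (FDR 0.0559), without the CPM filter (0.0707) and without Angus 1 (0.0767), Angus 2 (0.0507), Angus 3 (0.0537), Holstein 1 (0.0946) or Holstein 2 (0.131). The SLC2A1 difference was -0.50 (SE 0.20, FDR 0.0679), passing with DESeq2 (FDR 0.0421) and without Angus 4 (-0.63, FDR 0.0101), and HK1 stood at 0.10 (95% interval -0.09 to 0.28). HIF1A was 0.53 higher in Holstein without passing, and without Angus 3 it was 0.81 (FDR 0.000529). PFKP stood at -0.25 (FDR 0.203) and passed without Holstein 1 (-0.34, FDR 0.0494). Summed proliferation genes stood at 929 ± 179 CPM in Holstein and 1750 ± 484 CPM in Angus at this hour, and their part was not tested.

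**Figure D3:**
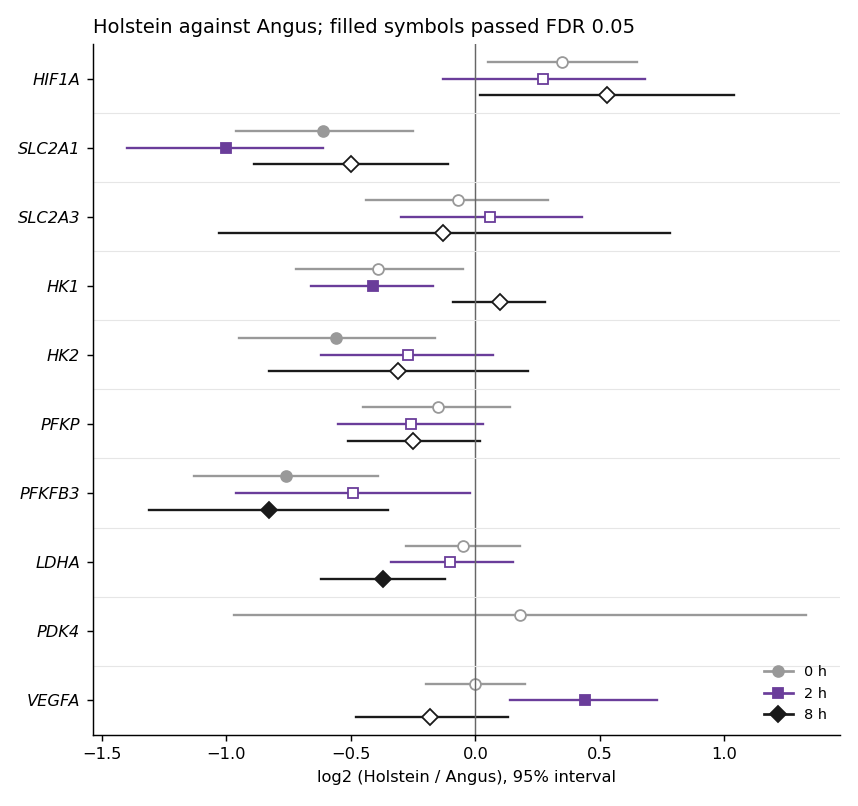
log2 difference between Holstein and Angus (horizontal axis, values under 0 are lower in Holstein) with its 95% interval at 0, 2 and 8 h, n = 4 animals per breed; filled symbols passed FDR 0.05. SLC2A1 and PFKFB3 lie below 0 at all 3 hours, HK1 moves from below 0 at 0 and 2 h to near 0 at 8 h, and PDK4 was tested at 0 h only.

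Whether LPS changed the genes differently in the 2 breeds was tested by the interaction of breed and LPS. None of the 10 genes passed at 2 h or at 8 h with the likelihood-ratio test, where 0.437% and 0.137% of all rows did. Only VEGFA at 2 h and HK1 at 8 h had an unadjusted p under 0.05 in edgeR, and none passed the FDR limit with the quasi-likelihood F test or DESeq2. With the animal as a block, SLC2A1 (-0.41, FDR 0.0459) and VEGFA (0.46, FDR 0.0172) passed at 2 h and LDHA (-0.32, FDR 0.02) at 8 h, where 4.28% and 2.59% of rows passed. Under the quasi-likelihood F test with the block they did not (FDR 0.118, 0.0823 and 0.0948).

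The changes per animal separated the breeds for 2 of these 3 genes. For SLC2A1 at 2 h they overlapped, at 2.97- to 3.62-fold in Angus and 1.99- to 3.12-fold in Holstein. VEGFA at 2 h was higher than at 0 h in all 4 Holstein animals and in 2 of 4 Angus animals, and the changes of the breeds did not overlap, as in 9.95% of rows. LDHA at 8 h was lower in all 4 Holstein animals and higher in 3 of 4 Angus animals, again without overlap (7.44% of rows). HK1 at 8 h was 1.6- to 2.14-fold the 0 h level in Holstein and 1.02- to 1.61-fold in Angus, with an interaction of 0.48 (SE 0.19) and a blocked FDR of 0.0645.

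Genes of the same pathways outside the 10 mostly did not pass with both breeds, and their counts are to be read against the 22.0% of all rows that passed at 2 h and the 12.8% at 8 h. Among 14 other glycolytic enzymes tested at 2 h, ENO2, an enolase, rose (0.77, SE 0.21, FDR 0.00231), and among 15 tested at 8 h it fell (-0.64, SE 0.20, FDR 0.0172), with no other call. ENO2 lost its 8 h call without Angus 3, Holstein 2 or Holstein 4 (FDR 0.0542 to 0.101) and without the 4 samples counted differently (0.113). Of 8 other glucose and lactate transporters, 0 passed at 2 h in edgeR, with 0 at an unadjusted p under 0.05 and 0 by DESeq2. SLC2A6 rose at 8 h (0.58, SE 0.20, FDR 0.0328), a call lost with the quasi-likelihood F test (FDR 0.0539) and without Angus 2, Angus 3 or Holstein 1 to 3 (FDR 0.0525 to 0.106), without the CPM filter (0.0658) and without the 4 samples (0.0712). In the 15 genes that control glycolysis and pyruvate entry, PFKFB4 (0.61) and PDP1 (0.46), a phosphatase that opposes the PDK kinases, rose at 2 h, and PFKFB2 (-0.42) fell with 2 others. PDP1 was also called at 8 h (0.24, FDR 0.0475), alone in that list, and lost the call without Angus 2, Angus 3 or any 1 of the Holstein animals (FDR 0.0988 to 0.143), without the CPM filter (0.183) and without the 4 samples (0.16).

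Of 10 HIF partners and oxygen sensors tested with both breeds, 2 fell at 2 h (22.0% of all rows called) and 2 at 8 h (12.8%). With the animal as a block 3 rose and 4 fell at 2 h (47.5% of rows called), and 2 rose and 2 fell at 8 h (40.7%). In Holstein alone 1 rose and 2 fell at 2 h (17.2%), and 1 rose and 2 fell at 8 h (14.7%). From 2 to 8 h with both breeds 1 rose and 1 fell (23.8%). At 2 h ARNT, the constitutive partner of HIF1A, fell by 0.40 on the log2 scale (FDR 3.74e-05) and VHL, which marks HIF1A for degradation, by 0.24 (FDR 0.0495). At 8 h CITED2, a HIF1A antagonist, fell by 0.59 (FDR 0.00719) and EGLN2, an oxygen-sensing prolyl hydroxylase, by 0.25 (FDR 0.011). The VHL call was lost without any 1 of the 8 animals (FDR 0.0751 to 0.137) and without the 4 samples counted differently (0.278), and that of EGLN2 without Holstein 1 (FDR 0.0513) and without the 4 samples (0.11).

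Of 21 other hypoxia target genes tested with both breeds, 3 rose and 2 fell at 2 h, and 2 rose and 1 fell at 8 h. The 2-fold limit was passed by 4 at 2 h (2.82% of all rows) and by 1 at 8 h (1.42%). In Holstein alone 5 rose and 1 fell at 2 h (17.2% of rows called), and 5 rose and 2 fell at 8 h (14.7%). In Angus alone 4 rose and 3 fell at 2 h (13.8%), and 0 were called at 8 h (3.9%). With both breeds the largest changes at 2 h were BHLHE40, a transcriptional repressor (1.59, SE 0.22, FDR 4.92e-11), HMOX1, heme oxygenase (1.37, SE 0.34, FDR 0.000932), and STC2 (-1.13, SE 0.15, FDR 2.32e-12). At 8 h they were ANGPTL4 (1.11, SE 0.29, FDR 0.00316), DDIT4 (0.70, SE 0.16, FDR 0.000605) and INSIG2 (-0.29, FDR 0.043), the last lost without Angus 1 to 3 or any 1 of the Holstein animals (FDR 0.0751 to 0.138) and without the CPM filter (0.082). The list's median change was 0.03 at 2 h and 0.11 at 8 h, where the medians of all rows were -0.004 and -0.007.

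In the VEGF family with both breeds, FLT1, the VEGFA receptor that also exists as a soluble trap, rose at 2 h (1.38, SE 0.22, FDR 1.54e-08) and at 8 h (1.00, SE 0.27, FDR 0.00336). VEGFC, a lymphatic growth factor, rose at 8 h (1.16, SE 0.16, FDR 3.83e-11), and the other 3 of the 5 genes tested did not pass. Of 9 FOXO and PPAR factors and fasting genes tested beside PDK4 with both breeds, 0 passed at 2 or 8 h in edgeR, with 3 at an unadjusted p under 0.05 at each hour, 0 and 2 calls by DESeq2, and medians of -0.22 and -0.23. In Holstein alone 1 of the 9 rose at 2 h (17.2% of rows called) and 2 fell at 8 h (14.7%). In Angus alone 2 fell at 2 h (13.8%) and 0 were called at 8 h (3.9%). The 14 proliferation genes with both breeds gave 0 calls at either hour in edgeR and in DESeq2, with 0 at an unadjusted p under 0.05. In Holstein alone 3 of the 14 rose at 8 h (14.7% of rows called), with 5 at an unadjusted p under 0.05 and 5 calls by DESeq2. In Holstein at 2 h and in Angus at either hour 0 were called. With both breeds and the animal as a block more genes of each list passed at 2 h, where 47.5% of all rows passed as well. Of the 21 hypoxia targets 7 rose and 6 fell, and 7 of 14 proliferation genes fell.

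**Figure D4:**
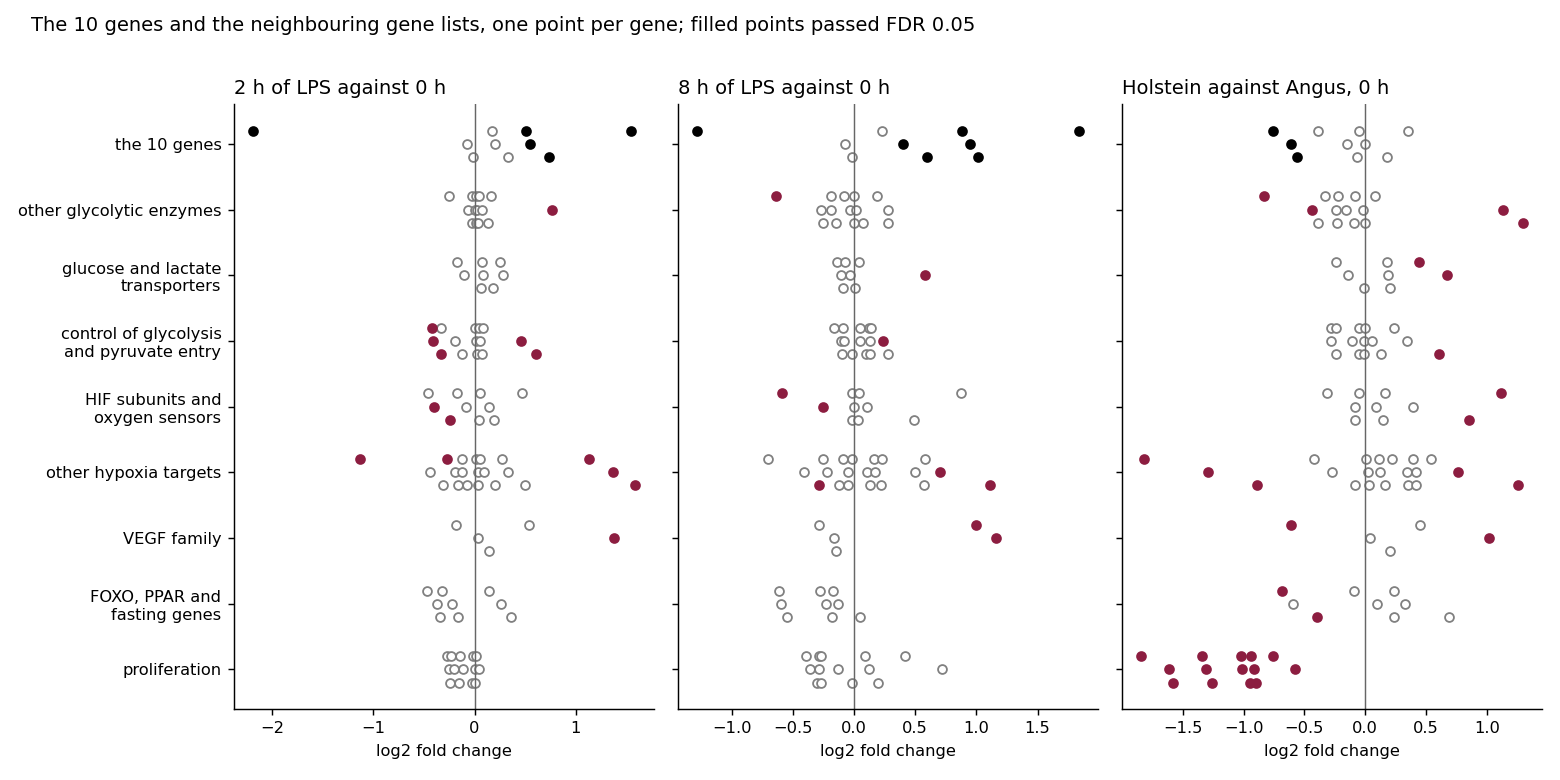
log2 fold change (horizontal axis) of the 10 genes and of the genes tested in 8 lists (rows; 1 point per gene, vertical offsets only separate points) at 2 h and 8 h of LPS with both breeds and for Holstein against Angus at 0 h. Filled points passed FDR 0.05; the list medians at 2 h lie between -0.22 and 0.14, and all 14 proliferation genes are lower in Holstein at 0 h.

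Between the breeds, the neighbouring lists held calls in both directions. ADM, a vasodilator peptide and hypoxia target, was lower in Holstein at 0, 2 and 8 h (-1.82, -2.25 and -1.29), as was HMOX1 (-1.29, -1.42 and -1.19), while IGFBP3 was higher (1.26, 1.33 and 1.15). The Holstein levels of IGFBP3 were widely spread, at 144 ± 92.3, 140 ± 88.1 and 86.7 ± 49.9 CPM. ALDOC, an aldolase, was higher in Holstein at all 3 hours (1.3, 1.36 and 1.39), whereas 6 of 14 other glycolytic enzymes were lower at 2 h (9.71% of all rows) and 4 of 15 at 8 h (7.78%). CPT1A, which brings fatty acids into mitochondria, was lower at each hour (-0.68, -0.54 and -0.68). FLT1 was higher in Holstein at 0 h (1.02, FDR 0.00032) and at 8 h (0.81, FDR 0.00087), and VEGFC was lower at 0, 2 and 8 h (-0.61, -0.91 and -0.34). Of the HIF list, EPAS1, a close relative of HIF1A, and EGLN3 were higher at 0 h (0.85 and 1.12). Without the samples counted differently, ADM, HMOX1, CPT1A and FLT1 kept their 0 h calls, and IGFBP3 (0.35, FDR 0.567), ALDOC (1.22, FDR 0.328), VEGFC (-0.53, FDR 0.301), EPAS1 (0.56, FDR 0.658) and EGLN3 (1.19, FDR 0.27) did not. With the quasi-likelihood F test IGFBP3 lost its call at 0 h (FDR 0.0742) and at 8 h (0.0661). ALDOC (0.0705), VEGFC (0.0538), EPAS1 (0.0891) and EGLN3 (0.0881) lost theirs at 0 h under that test. The 14 proliferation genes were lower in Holstein at each of these hours, as given above, and their part was not tested.

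For the 4 genes that passed the 2-fold limit in some comparison, the rows most like them over the 24 samples were listed by Pearson correlation of log2(CPM + 1), as a description, since samples share animals and hours. HIF1A was most like CYP3A4 (r = 0.951) and IL6ST (0.938), and SLC2A1 most like BTG3 (0.941) and SLC4A7 (0.933). For HK2 they were KIAA1217 (0.915) and ADORA2B (0.875), and for PDK4, whose values are low, LOC528767 (0.841) and CYP2U1 (0.823).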

How the data were processed

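Dermal fibroblast RNA from 4 Holstein and 4 Angus heifers at 0, 2 and 8 h of LPS (24 samples) was sequenced by the authors from poly-A libraries that do not mark strand. Base calls came from CASAVA 1.7 (submitters' processing notes). The authors removed short, low-quality reads, aligned the rest to UMD v3.1 with NextGENe 2.3.4 and deposited raw read counts per annotated interval. Gene spans with introns were the only intervals given, so levels of different genes are not compared. Deposited per-base mean coverage (a signal) served only to compare bases per count. Counts exceeded matched reads (1.5 to 1.712 counts per read), so some reads entered several rows. Rows without a symbol held about 14.0% of counts, stayed in library sizes and tests, and were left out in an alternative.

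Counts were scaled by TMM in edgeR 4.0.16 (R 4.3.3), rows with at least 1 CPM in at least 50% of the samples compared were kept, and only the samples of a comparison entered its fit. As in the study's methods, the likelihood-ratio test was used, with Benjamini-Hochberg adjustment over all rows. The stricter rule adds a 2-fold change and a mean above 1 CPM. Standard errors come from the fitted model and intervals (95%) are normal. Alternatives were the quasi-likelihood F test, DESeq2 1.42.0, DESeq2-type size factors, no filter, rows with a symbol only, all 24 samples in 1 fit, leaving out animals or the 4 samples counted differently, and a block. The fits were tested on simulated data. At CPM level, 3 counts are 0.029 to 0.059 CPM.

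The labels number the animals, so the hours of an animal are paired: deviations from group means correlated at 0.545 to 0.747 between 0 and 2 h and 0.533 to 0.75 between 0 and 8 h in 8 pairs, against at most 0.224 and 0.269 for different animals. The same number in the 2 breeds names different animals. Replicates are different animals, and no replicate pair differed by as little as sampling noise.

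All 10 members were named. From each list, at most 3 genes with the largest change past FDR 0.05 were named per comparison of both breeds with 0 h, or of the breeds. For members past the 2-fold limit the 2 most similar rows were named. The members, lists and tests were chosen with earlier results of these data known. The glucose transporter SLC2A12 and IRS2 had no row.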

Additional observations from a re-analysis of the deposited data

Results flagged for a closer look

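In 60 groups of 4 samples (10 genes, 2 breeds and 3 hours), 3 values lay further from the rest of their group than Dixon's 95% limit, and chance flags about 1 group in 20. HK2 in Holstein 2 at 0 h was 13.7 CPM, where the nearest Holstein sample had 21.6. PDK4 in Holstein 2 at 2 h was 1.61 CPM, where the nearest had 0.278. VEGFA in Holstein 1 at 0 h was 47.6 CPM, where the nearest had 49.4, in a group with an SD of 1.0 CPM.

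A difference between the breeds in the change with LPS passed for 3 genes when the animal was a block. It was -0.41 on the log2 scale for SLC2A1 at 2 h (FDR 0.0459, likelihood-ratio test in edgeR), 0.46 for VEGFA at 2 h (FDR 0.0172) and -0.32 for LDHA at 8 h (FDR 0.02). None of the 3 passed without the block, or with the block under the quasi-likelihood F test.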

How the results depend on the processing

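Of the 39 calls made for the 10 genes over all comparisons, 581 alternative values were computed; 514 kept direction and call, 67 lost the call and 0 reversed. DESeq2, DESeq2-type size factors and rows with a symbol each kept 39 of 39, the quasi-likelihood F test 35, no filter 34, the block 38 of 39, all 24 samples 30 of 36 and the fit without the 4 samples 29 of 37 (no such sample is at 8 h, so that breed comparison has no such fit). Another 51 gene results passed in no fit, and the sign of 23 of these changed in some fit. Replicate numbers pair hours within an animal, and besides the calls named with the genes the block changed none but VEGFA between breeds at 2 h (FDR 0.0557), where numbers pair no animals.

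Counts of genes called that moved by over 1.5 times were as follows. At 2 h with both breeds, 5 became 8 with the replicate block and the quasi-likelihood F test, which added LDHA (-0.08, FDR 0.0209), and 2 with the fold limits. At 8 h, 7 became 3 with the fold limits. From 2 to 8 h, 2 became 1 without the filter, 1 without the 4 samples, 4 with all 24 samples, 4 with the replicate block under either test and 0 with the fold limits. In Holstein, 6 became 1 at 2 h and 3 at 8 h with the fold limits. In Angus at 2 h, 3 became 6 with the replicate block under either test and 1 with the fold limits. In Angus at 8 h, 2 became 1 with the quasi-likelihood F test, 5 with all 24 samples, 6 with the block, 5 with the block and quasi-likelihood F test, and 1 with the fold limits. Between breeds, 3 at 0 h became 0 without the samples counted differently and 0 with the fold limits, 3 at 2 h became 5 and 1, and 2 at 8 h became 1 with the quasi-likelihood F test, 1 without the filter and 0 with the fold limits. The interaction went from 0 to 2 at 2 h and to 1 at 8 h with the replicate block. The cause was not tested.

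Leaving out each animal gave 4 to 6 genes at 2 h, 6 to 7 at 8 h and 1 to 2 from 2 to 8 h with both breeds, 4 to 5 and 5 to 6 in Holstein at 2 and 8 h, and 2 to 3 and 1 to 5 in Angus, where 5 came without Angus 4 and 1 without each of the others. Between breeds it gave 1 to 4 at 0 h (1 without Angus 1, Angus 4 or Holstein 4), 2 to 5 at 2 h (5 without Angus 3) and 1 to 3 at 8 h. The interaction stayed at 0. Depth limits only PDK4, with as few as 11 counts.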
